A study of Mus musculus with 21 samples.

Results

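Messenger RNA of 7 Nodal and activin signalling genes was followed in mouse embryonic stem (ES) cells. They were the ligand Nodal, its co-receptor Tdgf1 (also called Cripto), the secreted antagonists Lefty1, Lefty2 and Fst (follistatin), and the intracellular inhibitors Smad7 and Skil (SnoN). The genes were taken by name, as the rows of 21 count tables whose mouse Ensembl ID carries one of these symbols. Each symbol matched 1 row, so the 7 genes stood among 31053 gene IDs listed. All 7 were also among the 10643 genes that passed a filter on low counts and were tested.

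Nodal and the activins are ligands of the TGF-beta family. They bind activin receptors, which phosphorylate SMAD2 and SMAD3, and these enter the nucleus with SMAD4 and act on target genes together with partners such as FOXH1. Nodal needs a co-receptor such as TDGF1 for this, whereas activin does not. LEFTY proteins block Nodal, follistatin binds and neutralizes activin, SMAD7 acts on the receptors and SKIL represses SMAD complexes. Lefty1, Lefty2, Smad7 and Skil are themselves targets of the pathway and so form its negative feedback. ES cells make Nodal and respond to it, and the pathway is best known for its part in epiblast identity and in the formation of mesoderm and endoderm.

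The cells were E14Tg2a, a male mouse ES cell line of 129 background, with a GFPd2 reporter knocked into 1 allele of Rex1 (Zfp42), a gene of naive pluripotency. Every group carried this reporter, and all libraries came from this 1 line. The series text placed the samples at zero passage and after 1 or 2 months in different media. Messenger RNA was sequenced from 125 ng of total RNA per library, in 7 groups of 3 replicates, each named by a medium and 1 of PO, LP and HP. The cytokine LIF activates STAT3, CH is CHIR99021, an inhibitor of GSK3 that raises Wnt signalling, and 2i usually means CHIR99021 together with PD0325901, an inhibitor of the ERK kinase MEK. The groups were 2i+LIF PO, then 2i+LIF LP, CH+LIF LP and LIF LP, then 2i+LIF HP, CH+LIF HP and LIF HP. One growth protocol was given for all of them, with a first week in NDiff227 medium with 3 µM CHIR99021 and PD0325901, followed by passages in which the drugs were given and withdrawn in turn. PO was read as zero passage, which is an assumption, and which of LP and HP is the longer culture is not given in the sources used here. Nothing says that replicates were separate cultures, so the p-values measure only the spread between these libraries, which may be technical.

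Gene counts per library ran from 1132126 to 3783043, with a median of 1763531. Levels are given as CPM, the usual depth-scaled count, after scaling of library sizes by the TMM method. The 3 PO libraries carried another run tag than the other 18, so sequencing run and PO cannot be told apart. In a pair of libraries the makeup of the counts was unusual. Gm42418, a single gene, held 31.7% of gene counts in replicate 1 of 2i+LIF LP, and in 2i+LIF PO replicate 1 mitochondrial genes held 39.1%. All 8 ES cell markers listed, Pou5f1, Sox2 and Nanog among them, were detected in every group, at a summed 1334 to 3808 CPM per library.

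Targets of the inhibited kinases did not follow the labels in every group. A list of 8 MEK-ERK targets summed to 243 to 327 CPM in the LIF HP libraries, whose label names no MEK inhibitor, against 581 to 742 CPM in LIF LP. It stood at 763 and 799 CPM in 2i+LIF LP replicates 2 and 3, beside 654 to 779 CPM in CH+LIF LP, and at 358 CPM in 2i+LIF LP replicate 1. A list of 8 Wnt targets summed to 274 to 817 CPM in 2i+LIF HP and to at most 94 CPM in any other library, CH+LIF libraries included (1.94 to 72 CPM). In LIF HP, whose label names no CHIR99021, this list summed to 74.2, 85.6 and 77.3 CPM, above every CH+LIF library and the LIF LP libraries (1.33 to 7.21 CPM). Of these sums, Cdx1 made up 31.9, 36.3 and 38.1 CPM in LIF HP and 6.49, 3.82 and 6.09 CPM in CH+LIF HP. Between LIF HP and CH+LIF HP, 0 of 8 Wnt targets were called. Groups are therefore called by their labels throughout, and a direction between media below is one between the libraries so labelled, since the drug content at harvest was not tested. Markers of other cell types also differed: 6 trophectoderm markers summed to 40 to 60.4 CPM in 2i+LIF HP, with Cdx2 at 12.6 ± 7.73 and Krt7 at 23.5 ± 18.8 CPM (SD, n = 3) and Elf5 at 0. Elsewhere this list reached at most 37.5 CPM, in PO replicate 1, and 20.6 CPM outside PO.

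**Figure D1:**
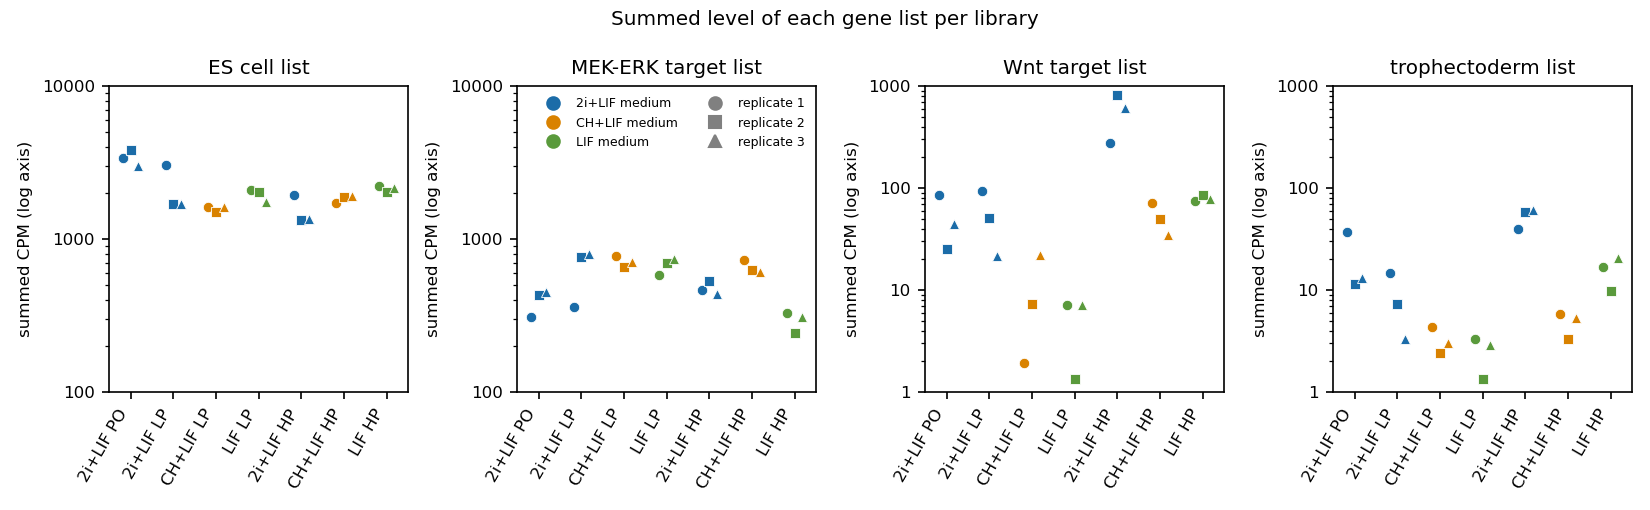
Summed CPM (log axes) of the ES cell, MEK-ERK target, Wnt target and trophectoderm lists in each of the 21 libraries. Points are libraries, colours are media and symbols are replicate numbers. The 2i+LIF HP libraries have the highest Wnt and trophectoderm sums, and the LIF HP libraries have MEK-ERK sums of 243 to 327.

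The main pattern was a joint low level of the ligand, its co-receptor and both Lefty genes in 2i+LIF HP. Tdgf1 averaged 36.5 ± 27.7 CPM there and 375 to 549 CPM in the other 6 groups. Lefty2 averaged 12 ± 10.4 CPM against 126 to 461 CPM, Lefty1 6.63 ± 3.72 CPM against 40.8 to 305 CPM, and Nodal 13.7 ± 5.92 CPM against 35.7 to 66.8 CPM (SD, n = 3 each). Fst had its lowest level in another group, LIF HP, with 1 count in 3 libraries. Smad7 and Skil were called by edgeR in no comparison, while DESeq2 called Smad7 in 1 (2i+LIF HP against PO) and limma-voom called Skil in LIF HP against LIF LP and in 1 interaction. A joint test of any difference among the 6 cultured groups called 5 of the 7 genes, beside 13.1% of all genes tested, with adjusted p of 1.19e-05 for Lefty1, 4.92e-05 for Tdgf1, 0.000183 for Lefty2, 0.0232 for Nodal and 0.0272 for Fst. The same test gave 0.405 for Smad7 and 0.514 for Skil. Nodal lost this call without 2i+LIF HP replicate 2 (0.115), 2i+LIF HP replicate 3 (0.0906) or LIF HP replicate 2 (0.0554). Fst lost it without any 1 of the LIF HP libraries (0.117, 0.0655 and 0.0931 for replicates 1, 2 and 3), and with counts thinned to the smallest library (0.0772). In these bulk libraries, fewer cells of a type and less RNA per cell cannot be told apart. Only messenger RNA was counted, so the activity of the pathway itself was not measured.

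**Figure D2:**
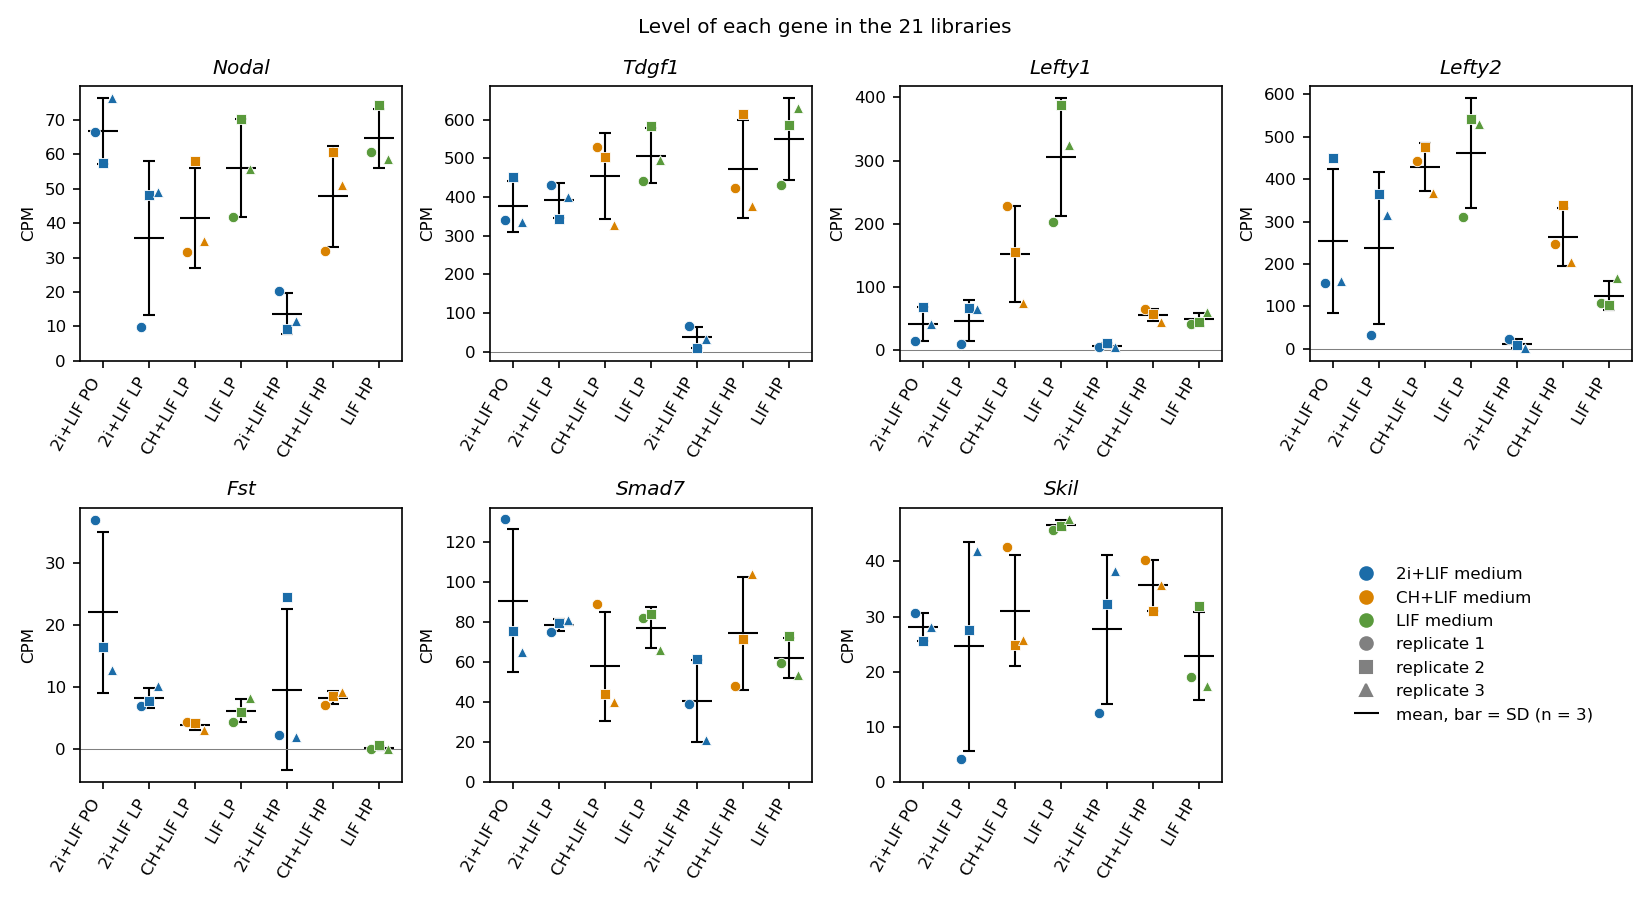
CPM of the 7 genes in each of the 21 libraries, by group. Points are libraries, horizontal marks are group means and bars are the SD (n = 3). Tdgf1, Lefty1, Lefty2 and Nodal have their lowest group mean in 2i+LIF HP, and Fst has its lowest in LIF HP, at 0.205 CPM.

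Compared per length of exon, Tdgf1 was the most abundant of the 7, at a mean of 151.7 CPM per kb over the 21 libraries. Lefty2 followed at 97.5, Lefty1 at 53.2, Nodal at 22.3, Smad7 at 15.2, Skil at 3.19 and Fst at 1.82 CPM per kb. These are levels, and whether the libraries covered whole transcripts or their ends is not given in the sources used here, so the order by length holds only for even coverage.

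Nodal (ENSMUSG00000037171) lies at chr10:61417972-61425338 on the plus strand of GRCm38. Nodal and Tdgf1 were low together in 2i+LIF HP, so the 250 bases before the start of each are shown, from RefSeq on GRCm38.p6, for the 2 of the 7 genes that the promoter table held. The Nodal window is chr10:61417722-61417971 on the plus strand, with 53.2% G and C. The Tdgf1 window is chr9:110946159-110946408 on the minus strand, with 42% G and C. Capitals mark matches on either strand to TGTNNATT, a motif of the FOXH1 type, or GTCT, a core of SMAD sites.
Nodal: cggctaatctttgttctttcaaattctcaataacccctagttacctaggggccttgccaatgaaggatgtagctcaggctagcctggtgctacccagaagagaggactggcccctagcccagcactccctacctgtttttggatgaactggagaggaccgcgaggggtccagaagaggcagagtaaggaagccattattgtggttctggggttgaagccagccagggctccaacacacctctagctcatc
Tdgf1: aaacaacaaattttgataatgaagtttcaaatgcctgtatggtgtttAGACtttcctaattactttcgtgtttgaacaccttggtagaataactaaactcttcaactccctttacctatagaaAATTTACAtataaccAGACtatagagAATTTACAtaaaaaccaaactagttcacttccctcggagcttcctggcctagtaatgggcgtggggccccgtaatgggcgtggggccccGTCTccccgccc
The Tdgf1 window held TGTNNATT at 2 places, with first bases at -127 and -101 from the start, and GTCT at 3 places, at -203, -112 and -12, none of them overlapping another. In the Nodal window neither was found. Neither window held CTTTGAT, a TCF motif, or TTCNNNGAA, a STAT motif. Of 32851 mouse promoter windows of this length, 10.9% held TGTNNATT, 82.9% GTCT, 3.21% CTTTGAT and 7.02% TTCNNNGAA. These are matches of letters only.

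Nodal stood at 66.5, 57.5 and 76.5 CPM in the 3 PO libraries. At LP it measured 9.82, 48.2 and 49.2 CPM in 2i+LIF, 31.5, 58.1 and 34.9 CPM in CH+LIF and 41.9, 70.4 and 55.8 CPM in LIF. The low value in 2i+LIF LP belonged to replicate 1, the library dominated by Gm42418, and the other LP libraries overlapped across the media. At HP, Nodal measured 20.4, 9.27 and 11.5 CPM in 2i+LIF, 31.8, 60.6 and 51 CPM in CH+LIF and 60.8, 74.5 and 58.7 CPM in LIF. The 2i+LIF HP libraries lay below every library of PO, CH+LIF and LIF, and overlapped only with 2i+LIF LP replicate 1. In the order of the group means, from PO (66.8 CPM) through LIF HP, LIF LP, CH+LIF HP, CH+LIF LP and 2i+LIF LP (35.7 CPM) to 2i+LIF HP, each neighbouring pair overlapped.

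Relative to 2i+LIF HP, the ligand was higher in LIF HP, with a log2 fold change of 2.21 ± 0.46 (SE; adjusted p = 0.00673), and in CH+LIF HP, with 1.78 ± 0.46 (adjusted p = 0.0381). Against PO, Nodal fell in 2i+LIF HP, at -2.26 ± 0.46 (adjusted p = 0.0025), and this call held in all 30 alternative settings, which changed the filter, scaling or tool or left out libraries. Between 2i+LIF HP and 2i+LIF LP the difference was -1.37 ± 0.46 and did not pass (adjusted p = 0.0989). Without 2i+LIF LP replicate 1 that difference was -1.77 (adjusted p = 0.00771), and limma-voom, which weights libraries by quality, gave -1.78 (0.0312). The CH+LIF HP call was lost without 2i+LIF HP replicate 2 (adjusted p = 0.212) or 3 (0.163), CH+LIF HP replicate 2 (0.209) or 3 (0.118), or LIF HP replicate 3 (0.0515). The LIF HP call was lost without 2i+LIF HP replicate 2 (0.0549).

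Tdgf1 (ENSMUSG00000032494), which encodes the membrane-anchored co-receptor of Nodal, lies at chr9:110939603-110946158 on the minus strand of GRCm38. It measured 340, 452 and 335 CPM in PO. At LP it measured 431, 343 and 399 CPM in 2i+LIF, 530, 504 and 327 CPM in CH+LIF and 441, 583 and 495 CPM in LIF. These 12 libraries overlapped across groups, from 327 to 583 CPM, and 2i+LIF LP replicate 1 did not stand apart. At HP, Tdgf1 measured 65.5, 10.4 and 33.5 CPM in 2i+LIF, 424, 615 and 375 CPM in CH+LIF and 430, 588 and 631 CPM in LIF. The 2i+LIF HP libraries were below all other 18, and the other 6 groups overlapped with their neighbours in the order of the means.

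Between 2i+LIF LP and 2i+LIF HP, Tdgf1 fell by 3.41 ± 0.45 on the log2 scale (SE; adjusted p = 8.7e-05). Relative to 2i+LIF HP it was higher by 3.68 ± 0.46 in CH+LIF HP (adjusted p = 8.43e-05) and, in LIF HP, by 3.90 ± 0.46 (adjusted p = 3.34e-05). Against PO, 2i+LIF HP stood at -3.35 ± 0.45 (adjusted p = 4.89e-05). These 4 calls held in all 30 alternative settings. Over these the log2 fold change ran from -4.20 to -2.96 against LP and from -4.14 to -2.90 against PO. It ran from 3.23 to 4.47 for CH+LIF HP and from 3.45 to 4.69 for LIF HP, each relative to 2i+LIF HP. HP against LP gave 0.06 ± 0.41 in CH+LIF (adjusted p = 1) and 0.12 ± 0.41 in LIF (adjusted p = 0.894), both smaller than their errors. In the test of the difference itself, the HP minus LP change of Tdgf1 was higher in LIF than in 2i+LIF by 3.53 ± 0.60 (adjusted p = 0.00681), and in CH+LIF by 3.47 ± 0.60 (adjusted p = 0.0219). The latter call was lost when any 1 of 6 libraries was left out: 2i+LIF LP replicate 3 (adjusted p = 0.0516), 2i+LIF HP replicate 3 (0.123), CH+LIF LP replicates 1 (0.0644) and 3 (0.148), and CH+LIF HP replicates 1 (0.0525) and 2 (0.134). It was also lost with the fit limited to the compared groups (0.129). Windows of 50 bases of the Tdgf1 transcripts were shared with the pseudogene Tdgf1-ps1 in 8.86% of cases, so part of its reads may have been set aside as not unique.

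**Figure D3:**
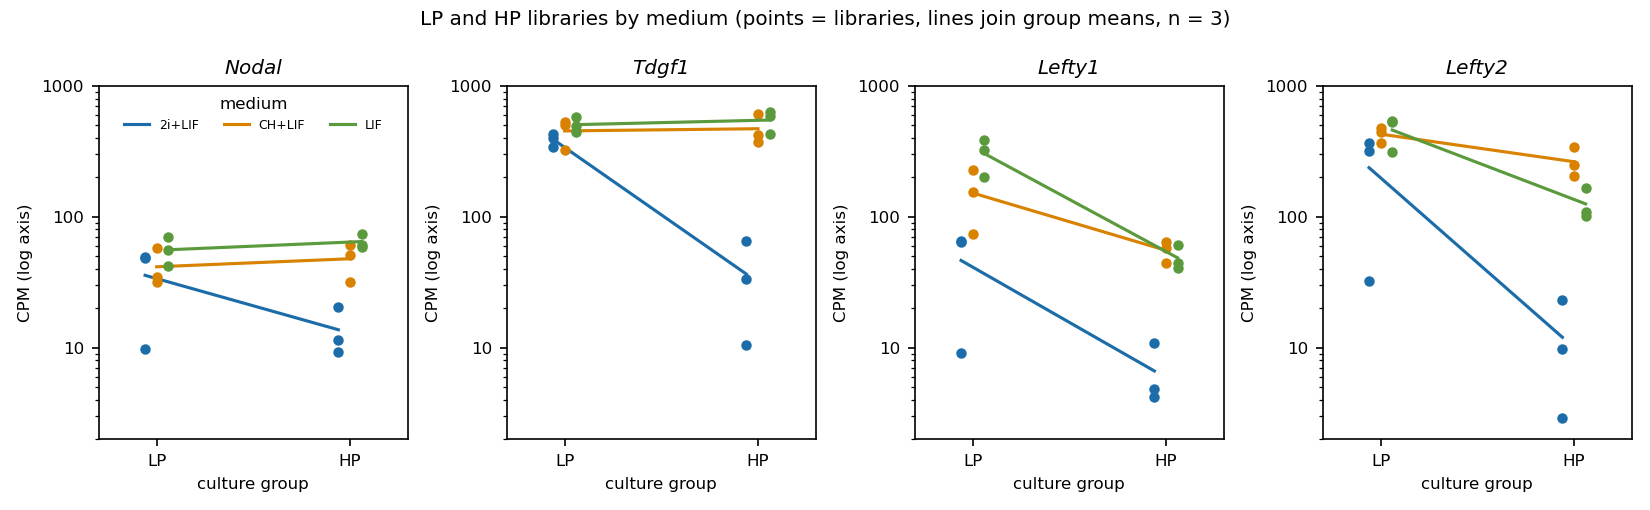
CPM (log axes) of Nodal, Tdgf1, Lefty1 and Lefty2 in the LP and HP libraries of each medium. Points are libraries and lines join the group means (n = 3). Tdgf1 is at 10.4 to 65.5 CPM in 2i+LIF HP and at 327 to 631 CPM in the other 15 libraries shown, while both Lefty genes have lower means at HP than at LP in all 3 media.

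Lefty1 (ENSMUSG00000038793) and Lefty2 (ENSMUSG00000066652) encode secreted antagonists that bind Nodal and its co-receptor. They lie close together on the plus strand of chromosome 1, Lefty1 at chr1:180935022-180938400 and Lefty2 at chr1:180893108-180899103 (GRCm38). Their transcripts share stretches of sequence, and a read that lies within such a stretch matches both genes. Windows of 50 bases were shared with another gene in 17.9% of cases for Lefty1 and 12% for Lefty2, and windows of 75 bases in 11.7% and 7.77%. The tables set reads that were not unique apart from the gene counts, so both levels may be too low, and the read length is not given in the sources used here.

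Lefty1 measured 13.7, 68.2 and 40.4 CPM in PO. At LP it measured 9.12, 65.9 and 64.3 CPM in 2i+LIF, 227, 154.9 and 74.4 CPM in CH+LIF and 203, 387 and 324 CPM in LIF. Levels in LIF LP were above all those of 2i+LIF LP and overlapped with CH+LIF LP. At HP, Lefty1 measured 4.18, 10.9 and 4.79 CPM in 2i+LIF, 64.2, 57.7 and 44.2 CPM in CH+LIF and 40.7, 44.3 and 60.8 CPM in LIF. The 2i+LIF HP values overlapped only with 2i+LIF LP replicate 1. In the order of the means, LIF LP and CH+LIF LP lay apart from CH+LIF HP, LIF HP, 2i+LIF LP and PO, whose levels overlapped.

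Lefty2 averaged 254 ± 169 CPM in PO (SD, n = 3), with 449 CPM in replicate 2, 159 CPM in replicate 3 and, from 292 counts, a level just below the latter in replicate 1. At LP it measured 32.3, 364 and 316 CPM in 2i+LIF, 443, 476 and 368 CPM in CH+LIF and 311, 541 and 530 CPM in LIF. Here, too, 2i+LIF LP replicate 1 was far below its replicates. At HP, Lefty2 measured 23.2, 9.81 and 2.88 CPM in 2i+LIF, 247, 340 and 204 CPM in CH+LIF and 109, 102 and 166 CPM in LIF. The 2i+LIF HP libraries lay below all other 18. Over the 21 libraries the log2 CPM of Lefty1 and Lefty2 had a Pearson r of 0.865 and a Spearman rho of 0.926, and r was 0.821 over the 18 libraries outside 2i+LIF HP. The libraries share groups and depth, so this is a description.

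Both Lefty genes fell between 2i+LIF LP and 2i+LIF HP, Lefty2 by 4.23 ± 0.67 (adjusted p = 0.000493) and Lefty1 by 2.79 ± 0.62 (adjusted p = 0.0106) on the log2 scale (SE). Relative to 2i+LIF HP, CH+LIF HP had more of both, by 4.38 ± 0.68 for Lefty2 (adjusted p = 0.000798) and 3.03 ± 0.63 for Lefty1 (0.00694). In LIF HP they were higher by 3.30 ± 0.65 (0.00431) and 2.83 ± 0.63 (0.0104). Lefty1 lost its call against 2i+LIF LP without 2i+LIF HP replicate 3 (0.0577), and against LIF HP without 2i+LIF HP replicate 1 (0.0554) or 3 (0.0543). Limiting the fit to the compared groups ended the calls of 2i+LIF HP against 2i+LIF LP, with 0.0673 for Lefty2 and 0.146 for Lefty1. Without both libraries of unusual makeup, Lefty2 fell by 4.70 (1.3e-07) and Lefty1 by 3.26 (1.81e-05) in that comparison.

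In LIF medium, too, both Lefty genes fell from LP to HP. Lefty1 fell by 2.66 ± 0.56 (adjusted p = 0.00422), a call kept in all 30 alternative settings. Lefty2 fell by 1.88 ± 0.59 (adjusted p = 0.0437), and this call was lost when any LIF LP library (0.0664, 0.121 and 0.0958 for replicates 1, 2 and 3) or any LIF HP library (0.104, 0.153 and 0.0848) was left out, and without 2i+LIF HP replicate 2 (0.0505) or CH+LIF HP replicate 1 (0.0553). At LP, Lefty1 was higher in LIF than in 2i+LIF by 2.70 ± 0.56 (adjusted p = 0.0177). That call was lost without 2i+LIF LP replicate 1 (a difference of 2.24, adjusted p = 0.0613), LIF LP replicate 2 (0.128) or LIF LP replicate 3 (0.0698), and with the fit limited to the compared groups (0.246). The CH+LIF LP level of Lefty1 lay between them, at a difference of 1.70 ± 0.54 from 2i+LIF LP that did not pass (adjusted p = 0.434).

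Fst (ENSMUSG00000021765) encodes follistatin, a secreted protein that binds activin, and lies at chr13:114452290-114458951 on the minus strand of GRCm38. Part of an exon overlaps the antisense gene Gm47040, which had 0 counts in all groups, and whether counting used strand is not given in the sources used here. Fst was the least abundant of the 7 genes, with 378 counts in all. It measured 36.9, 16.5 and 12.7 CPM in PO and 7.01, 7.75 and 10.1 CPM in 2i+LIF LP. In CH+LIF LP it measured 4.36, 4.24 and 3.04 CPM, and in LIF LP 4.41, 5.98 and 8.18 CPM. The PO libraries were above all LP libraries. CH+LIF LP was below the other LP groups, but only by 4.36 against 4.41 CPM for the nearest LIF LP library. Fst was called in no comparison between LP groups. At HP, Fst measured 2.32, 24.5 and 1.92 CPM in 2i+LIF and 7.14, 8.59 and 9.14 CPM in CH+LIF. A single library, 2i+LIF HP replicate 2, set the mean of its group. In LIF HP it measured 0, 0.616 and 0 CPM, which is 1 count in all, and the 0 counts of replicates 1 and 3 allow up to 1.55 and 3.09 CPM.

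Fst was lower in LIF HP than in all 4 groups it was compared with. Against LIF LP the log2 fold change was -4.46 ± 1.14 (SE; adjusted p = 0.0147), and LIF LP had 39.2 times the pooled level, with a 95% interval of counting error from 6.57 to 1592. Against 2i+LIF HP it was -5.12 ± 1.11 (adjusted p = 0.00866), with a pooled ratio of 60.6 (10.4 to 2439), and without 2i+LIF HP replicate 2, where Fst was high, the difference was -2.96 and did not pass (0.16). Against CH+LIF HP it was -4.87 ± 1.12 (adjusted p = 0.0234), with a pooled ratio of 46.3 (7.86 to 1874). Against PO it was -6.26 ± 1.06 (adjusted p = 0.000684), with a pooled ratio of 98.9 (17.5 to 3926), and only this one of the 4 calls held in all 30 alternative settings. Over these settings its log2 fold change ran from -8.39 to -4.88. The fitted fold changes depend on the prior count, since 1 group had a single count.

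Leaving out any 1 library of CH+LIF HP (0.0594, 0.071 and 0.0739 for replicates 1, 2 and 3) or of LIF HP (0.115, 0.0914 and 0.0979) ended the call of Fst between these groups, as did thinning all counts to the smallest library (-4.33, adjusted p = 0.0591). Without LIF HP replicate 2, which held the only count of its group, the difference was -7.01. The call against LIF LP was lost without LIF HP replicate 1 (0.0622) or 3 (0.0574), and that against 2i+LIF HP also without LIF HP replicate 1 (0.0504). Between PO and CH+LIF LP, Fst fell by 2.45 ± 0.71 on the log2 scale (adjusted p = 0.0315). Without PO replicate 1, the library rich in mitochondrial counts, this difference was -1.89 and did not pass (0.115). It was also lost without CH+LIF LP replicate 1 (0.0971), 2 (0.0914) or 3 (0.0953), without both libraries of unusual makeup (-1.90, 0.0677) and with thinned counts (-2.44, 0.0514).

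Smad7 (ENSMUSG00000025880) encodes an inhibitory SMAD that acts at the receptors. It ranged from 21.1 to 132 CPM over the 21 libraries. In PO it measured 132, 75.6 and 65.1 CPM, in 2i+LIF LP 75, 79.7 and 81.1 CPM and in 2i+LIF HP 39, 61.6 and 21.1 CPM. The last group was below 2i+LIF LP in every library, with a log2 difference of -0.94 ± 0.39 that did not pass (adjusted p = 0.212). Against PO the difference was -1.14 ± 0.39 (adjusted p = 0.0605 with edgeR), which DESeq2 called. In the other groups Smad7 measured 89.1, 44.2 and 40.2 CPM in CH+LIF LP, 82.1, 84.3 and 65.9 CPM in LIF LP, 48, 71.6 and 104 CPM in CH+LIF HP and 59.8, 73.3 and 53.6 CPM in LIF HP. All groups overlapped with their neighbours in the order of the means, from PO at 90.8 CPM to 2i+LIF HP at 40.6 CPM.

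Skil (ENSMUSG00000027660) encodes a repressor of SMAD complexes and lies at chr3:31095058-31122577 on the plus strand of GRCm38. It was most even in LIF LP, at 45.7, 46.5 and 47.6 CPM, above all other libraries. It measured 30.6, 25.6 and 28.2 CPM in PO, 42.6, 24.8 and 25.8 CPM in CH+LIF LP and 40.2, 31 and 35.8 CPM in CH+LIF HP. In 2i+LIF LP it measured 4.21, 27.6 and 41.9 CPM, with the low value in replicate 1, and in 2i+LIF HP 12.5, 32.2 and 38.3 CPM. The LIF HP libraries had 19.1, 32 and 17.5 CPM. The difference between LIF HP and LIF LP was -1.02 ± 0.49 on the log2 scale and did not pass with edgeR (adjusted p = 0.186), while limma-voom called it. Skil differed by 0.13 ± 0.49 between 2i+LIF HP and 2i+LIF LP (adjusted p = 0.928), with a spread in both groups wider than the difference.

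At HP, the question was whether the media differed. Of the 7 genes, 4 were higher and 0 lower in CH+LIF HP than at the same stage in 2i+LIF, beside 2.02% of all genes called and 1.1% higher. The 4 were Nodal, Tdgf1, Lefty1 and Lefty2, and the median log2 fold change of the 7 genes was 1.78, against -0.008 over all genes tested. LIF HP against 2i+LIF HP called 5 of 7, with Nodal, Tdgf1, Lefty1 and Lefty2 higher and Fst lower, beside 3.78% of all genes (2.1% higher, 1.68% lower), with a median of 2.21 against -0.020. In LIF HP against CH+LIF HP edgeR called Fst alone as lower, 1 of 7, beside 1.47% of all genes called and 0.874% lower. In the same comparison 4 of 7 MEK-ERK targets (Etv4, Dusp6, Spry4 and Egr1) and the formative epiblast marker Otx2 (1 of 4 tested) were lower, and their part in the result was not tested. The Lefty2 difference there was -1.07 ± 0.58 (adjusted p = 0.391 with edgeR), and limma-voom called it. The first pair of comparisons share the 3 libraries of 2i+LIF HP.

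HP was set against LP within each medium. In 2i+LIF, 3 of 7 genes fell (Tdgf1, Lefty1 and Lefty2), beside 3.67% of all genes called and 2.05% lower, with a median log2 fold change of -1.37 against 0.007 over all genes. In LIF, 3 of 7 fell (Lefty1, Lefty2 and Fst), beside 9.96% of all genes called and 4.63% lower, with a median of -1.02 against 0.008. In the same comparison 6 of 7 MEK-ERK targets, the formative epiblast markers Otx2 and Pou3f1 (2 of 4 tested) and the neural marker Sox1 (1 of 4) fell and 3 of 8 Wnt targets rose, and their part in the result was not tested. In CH+LIF edgeR called 0 of 7, beside 0.0094% of all genes. Of the 7 genes 1 had an unadjusted p under 0.05 there (Lefty1, at -1.46 ± 0.54, adjusted p = 0.704), and DESeq2 and limma-voom called 0 as well. The difference between media in HP minus LP was tested for each gene, and 2 of 21 tests were called, both for Tdgf1, beside 0.0188% of all genes for CH+LIF against 2i+LIF, 0.15% (0.122% higher) for LIF against 2i+LIF and 0.423% for LIF against CH+LIF. For Lefty2 the interaction in CH+LIF against 2i+LIF was 3.53 ± 0.86 (adjusted p = 0.194). Without 2i+LIF LP replicate 1 it was 4.02 (adjusted p = 0.0105), and DESeq2 gave 3.55 (0.0199). It was also called with limma-voom (4.08, 0.0134), with no filter on low counts (3.53, 1.51e-05) and without both libraries of unusual makeup (4.01, 0.000747). In LIF against 2i+LIF the interaction of Lefty2 was 2.35 ± 0.85 (adjusted p = 0.278) and that of Nodal 1.58 ± 0.62 (0.324). There Lefty2 was called with limma-voom (3.02, 0.0409), with no filter (2.32, 0.0167) and without both libraries of unusual makeup (2.81, 0.015), and Nodal in the last of these (1.98, 0.0387). A difference between media was thus called for Tdgf1 in the edgeR fit, and for Lefty2 and Nodal under some alternatives. With no filter, Fst was called in LIF against 2i+LIF as well (-4.70, 0.0351). For Fst in LIF against CH+LIF, where edgeR called 0 of 7 and 1 had an unadjusted p under 0.05, it was -5.53 ± 1.38 (adjusted p = 0.0703). There DESeq2 called 1, Fst at -5.74 (0.0242), and limma-voom called 2, Fst and Skil. Fst was called there too with no filter (-5.54, 0.00552), with only the compared groups fitted (-5.51, 0.00503) and without both libraries of unusual makeup (-5.55, 0.0188).

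The media were also compared at LP. LIF LP against 2i+LIF LP called 1 of 7, Lefty1, beside 0.489% of all genes called and 0.113% higher. Without both libraries of unusual makeup, this Lefty1 difference was 2.23 (adjusted p = 0.00458). The Wnt targets Axin2 and Sp5 (2 of 8) were lower in the same comparison, and their part in the result was not tested. For CH+LIF LP relative to 2i+LIF LP, edgeR called 0 of 7, beside 0% of all genes, with 1 gene (Lefty1) at an unadjusted p under 0.05. In LIF LP against CH+LIF LP it called 0 of 7, beside 0.047% of all genes, with 0 at an unadjusted p under 0.05. DESeq2 and limma-voom called 0 of 7 in both.

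Against PO, 4 of 7 genes were lower in 2i+LIF HP (Tdgf1 at -3.35, Nodal at -2.26, Lefty1 at -2.60 and Lefty2 at -4.32 on the log2 scale), beside 10.6% of all genes called and 4.79% lower. Without both libraries of unusual makeup these were -3.40, -2.24, -3.00 and -4.54. In the same comparison 5 of 8 ES cell markers (Nanog, Esrrb, Tfcp2l1, Zfp42 and Dppa5a) and the formative marker Otx2 were lower. Higher were 7 of 8 Wnt targets (Lef1 and T among them), Krt7, Cdx2, the MEK-ERK target Etv4 (1 of 7) and the neural marker Pax6 (1 of 4). The part of these genes in the result was not tested. Lefty1 lost this call without 2i+LIF HP replicate 3 (adjusted p = 0.0536). Lefty1 was higher in LIF LP by 2.88 ± 0.56 (SE; adjusted p = 0.00148), the 1 call of 7, beside 12% of all genes called and 5.84% higher, and without both libraries of unusual makeup by 2.49 (0.000101). In that comparison 5 of 8 ES cell markers, 3 of 8 Wnt targets and the trophectoderm marker Tfap2a (1 of 3 tested) were lower. Higher were 5 of 7 MEK-ERK targets, 3 of 4 neural markers (Pax6, Tubb3 and Sox1) and the formative marker Pou3f1 (1 of 4). In CH+LIF LP against PO, 5 of 8 ES cell markers and the Wnt targets Notum and Sp5 (2 of 8) were lower. There 5 of 7 MEK-ERK targets and Pou3f1 (1 of 4 formative markers tested) were higher as well. In both comparisons the part of these genes in the result was not tested. DESeq2 also called Fst, and limma-voom Lefty2, in LIF LP against PO. CH+LIF LP called 2 of 7, Lefty1 higher by 1.89 ± 0.54 (adjusted p = 0.0308) and Fst lower, beside 8.31% of all genes called, 4.24% higher and 4.07% lower. That Lefty1 call was lost without PO replicate 1 (0.0915) or 3 (0.0793), or CH+LIF LP replicate 1 (0.154) or 2 (0.0774), and with the fit limited to the compared groups (0.0694). LIF HP called Fst alone as lower, 1 of 7, beside 12.3% of all genes called and 5.17% lower. There Otx2 (1 of 4 formative markers tested) and 2 of 8 ES cell markers were lower, while 1 of 8 ES cell markers and 1 of 8 Wnt targets were higher, and their part in the result was not tested. For 2i+LIF LP, edgeR called 0 of 7 beside 5.06% of all genes, with 2 at an unadjusted p under 0.05, and for CH+LIF HP 0 of 7 beside 5.82%, with 1 at an unadjusted p under 0.05. DESeq2 and limma-voom called 0 in both. All 6 comparisons share the 3 PO libraries and their run, so the values stand side by side.

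**Figure D4:**
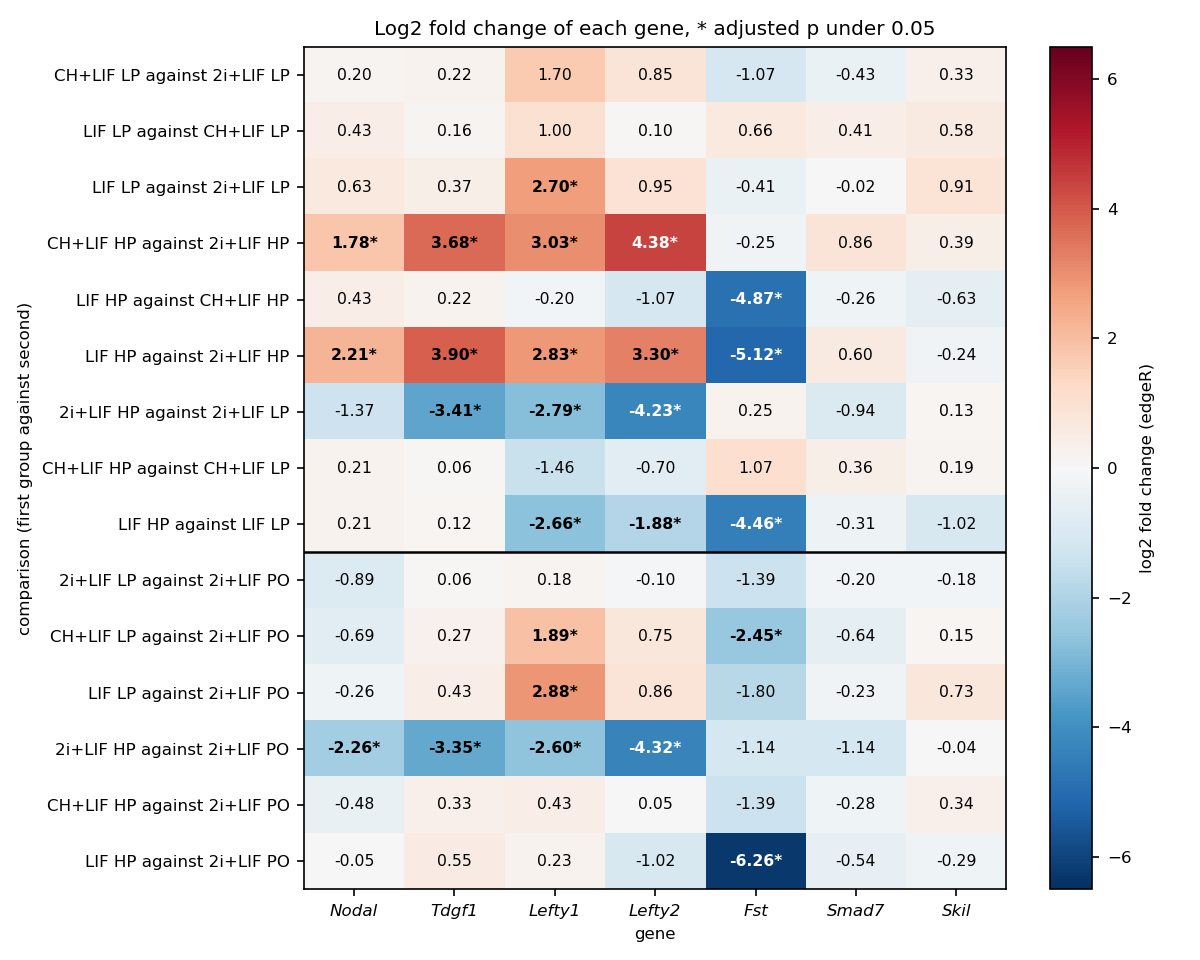
Log2 fold changes of the 7 genes (columns) in the 15 comparisons (rows, first group against second), from edgeR. Colour and printed value give the log2 fold change and an asterisk marks an adjusted p under 0.05. Tdgf1 is marked only in rows with 2i+LIF HP, where it stands at 3.68 and 3.90 in the other media, at -3.41 against LP and at -3.35 against PO.

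The rest of the pathway was read from a list of 43 further genes, of which 29 passed the filter: 4 of 8 ligands, 2 of 2 convertases, 5 of 8 receptors, 4 of 5 SMADs or partners, 10 of 13 inhibitors and 4 of 7 targets. Gdf1, the receptor gene Acvr1c and the Nodal antagonist Cer1 had 0 counts in all libraries. Exons of Gdf1 overlap Cers1 and Upf1 and those of Acvr1c overlap Gm13544, so reads there may have been set aside as ambiguous. Likewise, exons of Otx2 overlap Otx2os1 and those of Pcsk6 overlap Gm45213. Foxh1, the DNA-binding partner of SMAD2, had 6 counts in all. Gdf1, Acvr1c, Cer1 and Foxh1 were singled out after their counts were seen. Per length of exon, the highest level of each role belonged to the ligand Gdf3 (49.6 CPM per kb), the convertase Pcsk6 (7.93), the receptor Acvr2b (11.1), Smad4 (14.2), the inhibitor Drap1 (62.5) and the target Otx2 (2.64). Gdf3 is a ligand that also uses TDGF1, and it ranged only from 68 to 180 CPM over the 21 libraries.

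Joint differences among the cultured groups were called for 7 of these 29 genes (24.1%), beside 13.1% of all genes, among them Otx2, Fstl1, Pcsk6, Inhbb, Pmepa1 and Smurf1. Over the 9 comparisons among cultured groups, 9 of 261 tests were called, against 17 of 63 for the 7 genes above, beside 0% to 9.96% of all genes per comparison. Of the 29, 2 were higher in CH+LIF HP relative to 2i+LIF HP, with a median log2 fold change of -0.12 over the 29. For LIF HP relative to 2i+LIF HP, 1 of 29 was higher, with a median of -0.08. Between 2i+LIF HP and 2i+LIF LP, 2 of 29 fell, with a median of -0.19.

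Among ligands, Inhbb, which encodes the subunit of activin B, measured 14.7, 12.1 and 10.6 CPM in 2i+LIF LP and 52.3, 40.5 and 47.6 CPM in LIF LP. At HP it measured 0, 0 and 3.83 CPM in 2i+LIF and 3.61, 9.24 and 1.03 CPM in LIF. The HP libraries of both media thus lay below their LP libraries. Inhbb fell from LP to HP by 3.25 ± 0.66 in LIF (adjusted p = 0.00329), in all 30 alternative settings, and by 3.73 ± 0.86 in 2i+LIF (adjusted p = 0.0132). The 2i+LIF call was lost without 2i+LIF HP replicate 1 (0.0576) or 2 (0.0951), and with the fit limited to the compared groups (0.252). Against PO (2.48 ± 0.658 CPM), Inhbb was higher in LIF LP by 4.18 ± 0.67 (adjusted p = 0.000281) and in CH+LIF LP by 3.02 ± 0.66 (0.00629). It was called higher in 2i+LIF LP as well, but that call was lost in 16 of 30 alternative settings (adjusted p of up to 0.276).

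Pcsk6, a convertase that cleaves the Nodal precursor, was highest in PO, at 54.3, 104 and 108 CPM. It fell against PO in 2i+LIF HP by 2.25 ± 0.38 (adjusted p = 0.000437), in CH+LIF HP by 1.81 ± 0.37 (0.00564) and in LIF LP by 1.5 ± 0.37 (0.00866), each in all 30 alternative settings. Pcsk6 was also called lower than PO in 2i+LIF LP and CH+LIF LP. Those calls were lost in 5 settings (adjusted p of up to 0.337) and 3 settings (up to 0.0654). At HP it measured 23.2, 16.4 and 16.3 CPM in 2i+LIF and 63.9, 55.4 and 61.8 CPM in LIF, a difference of 1.68 ± 0.38 (adjusted p = 0.0124). This call was lost without 2i+LIF HP replicate 2 (0.0639) or 3 (0.0579).

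Otx2, a transcription factor gene of the epiblast that responds to Nodal, was low in 2 of the HP groups. It measured 0.93, 3.27 and 1.92 CPM in 2i+LIF HP. The LIF HP libraries had 0, 3.7 and 0 CPM and the CH+LIF HP libraries 29.2, 15.7 and 15.2 CPM. CH+LIF HP was above 2i+LIF HP by 3.27 ± 0.76 (adjusted p = 0.0166), and LIF HP stood at -3.86 ± 0.81 against CH+LIF HP (adjusted p = 0.0141). From LIF LP to LIF HP, Otx2 fell by 3.06 ± 0.82 (adjusted p = 0.0195). The first of these calls was lost without 2i+LIF HP replicate 1 (0.0906) or 3 (0.0726), or CH+LIF HP replicate 1 (0.0858). The second was lost without CH+LIF HP replicate 1 (0.0691), or LIF HP replicate 1 (0.0745) or 3 (0.0718), and the third without LIF LP replicate 1 (0.0676), or LIF HP replicate 1 (0.0767) or 3 (0.082).

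Of the inhibitors, Fstl1, a follistatin-like secreted protein gene, measured 222, 193 and 168 CPM in CH+LIF HP and 28.3, 33.8 and 50.8 CPM in 2i+LIF HP. The difference of 2.38 ± 0.46 (adjusted p = 0.00402) held in all 30 alternative settings. Pmepa1, a SMAD-induced inhibitor of the pathway, measured 203, 69.8 and 72.1 CPM in 2i+LIF LP and 47.4, 33.8 and 30.7 CPM in 2i+LIF HP. The high value lay in 2i+LIF LP replicate 1, and the fall of 1.61 ± 0.41 (adjusted p = 0.0225) was lost in 6 settings, with -0.89 (adjusted p = 0.216) without that library. It was also lost without 2i+LIF HP replicate 2 (0.114) or 3 (0.109).

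Against PO, 23 of 174 tests of these 29 genes were called, beside 5.06% to 12.3% of all genes per comparison. Fstl1 was higher than in PO in LIF LP (1.89 ± 0.45) and CH+LIF HP (2.49 ± 0.45). Otx2 was lower in 2i+LIF HP (-2.69 ± 0.75) and LIF HP (-3.28 ± 0.81), and Pmepa1 in 2i+LIF HP (-1.46 ± 0.41) and CH+LIF HP (-1.37 ± 0.40). Both Fstl1 calls held in all 30 alternative settings, and that of Otx2 in LIF HP in all 29 that gave a value. The Otx2 call in 2i+LIF HP was lost in 3 settings (adjusted p of up to 0.14), and the Pmepa1 calls in 4 (up to 0.125) for 2i+LIF HP and 17 (up to 0.2) for CH+LIF HP. Besides those named, Tgif1, a corepressor of SMADs, was lower in 2i+LIF LP (-2.56 ± 0.64), LIF LP (-2.09 ± 0.62) and 2i+LIF HP (-2.10 ± 0.63). Smad3, a signal-carrying SMAD, was lower in LIF LP (-2.29 ± 0.73) and CH+LIF HP (-3.03 ± 0.79). Smurf1 was lower (-1.77 ± 0.49) and Drap1 higher (1.07 ± 0.34) in LIF HP, and Tgfb1 was higher in CH+LIF LP (3.33 ± 1.01). Each of these calls was lost in at least 3 alternative settings, leaving out a PO library among them. The highest adjusted p over the settings was 0.388 for Tgif1, 0.175 for Smad3, 0.0953 for Smurf1, 0.255 for Drap1 and 0.137 for Tgfb1, and all of them share the run of PO.

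**Figure D5:**
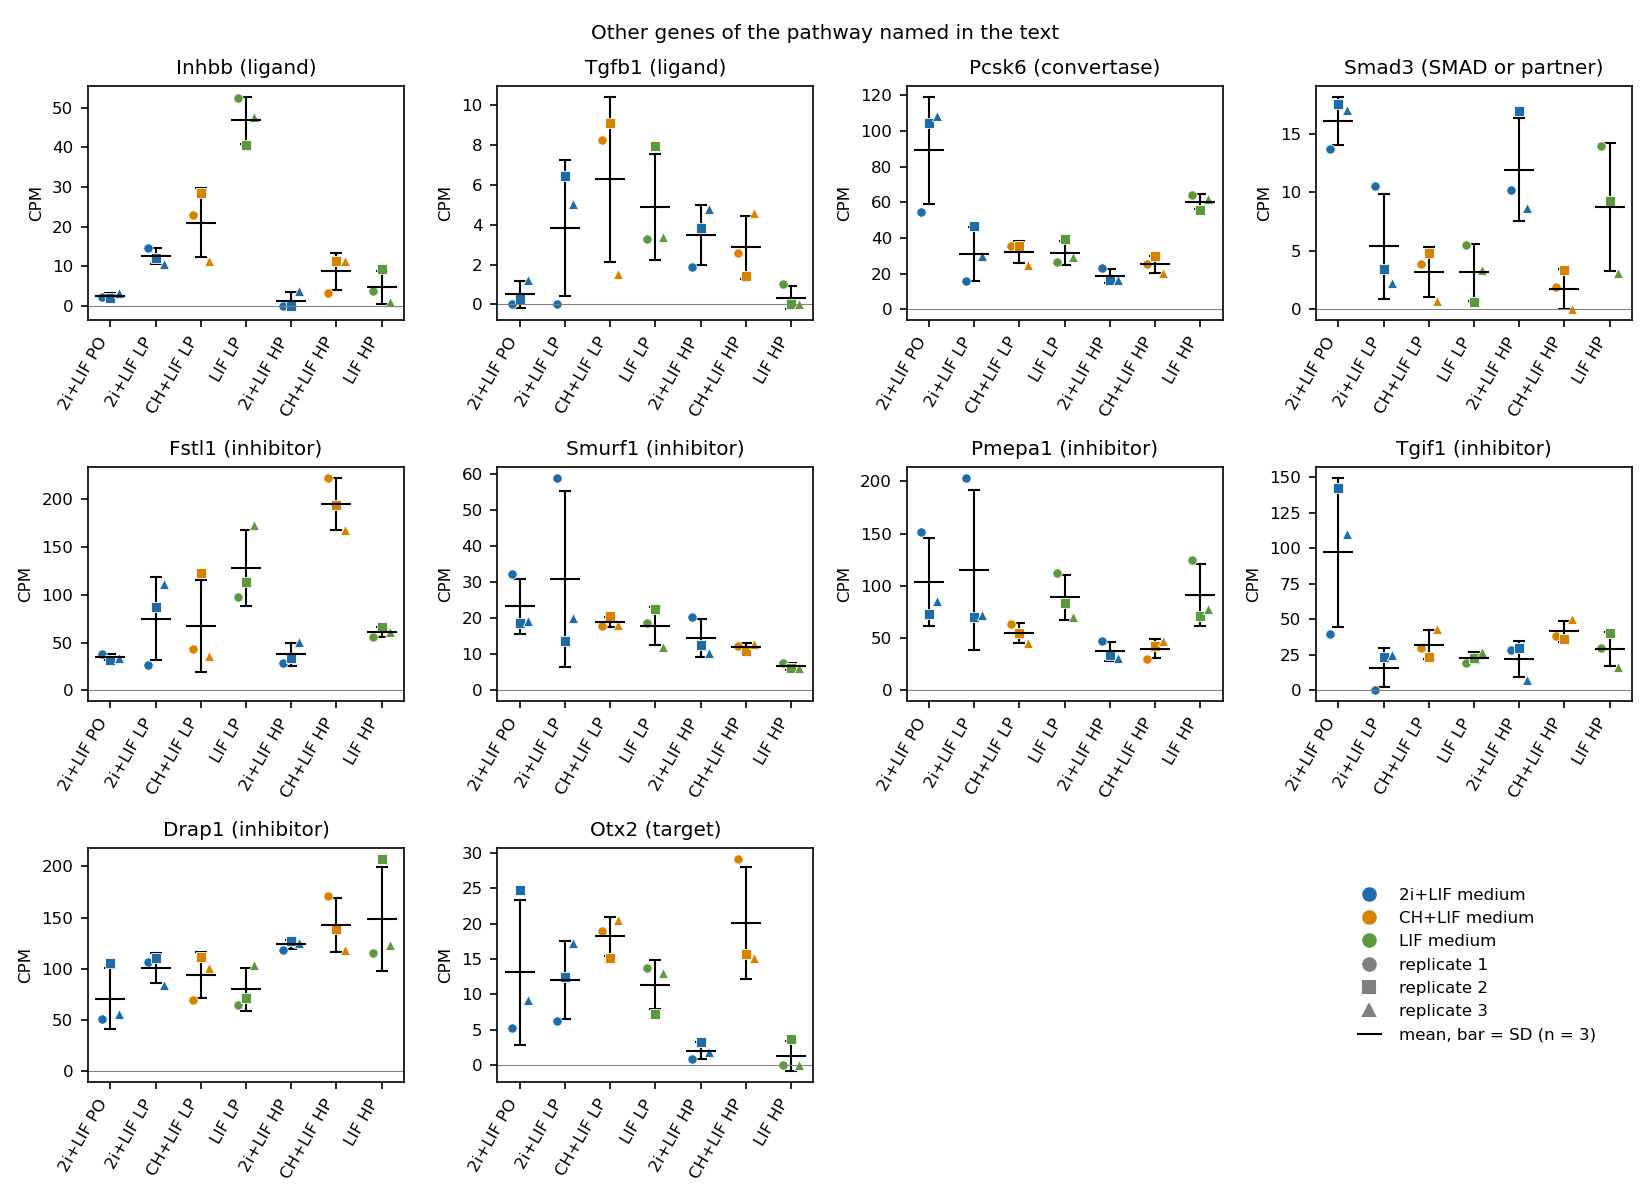
CPM of 10 further pathway genes named in the text, in each of the 21 libraries by group. Points are libraries, horizontal marks are group means and bars are the SD (n = 3). Inhbb is highest in LIF LP, Fstl1 in CH+LIF HP and Pcsk6 in PO, and Otx2 is at 3.7 CPM or less in 2i+LIF HP and LIF HP.

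The 3 genes most like each of the 7 were looked up by the Pearson correlation of log2 CPM over the 21 libraries, among 9459 genes. Tdgf1 was most like Agpat4 (r of 0.916, rho of 0.679), and r was 0.446 over the 18 libraries outside 2i+LIF HP. Nodal was most like Pura (0.887, rho of 0.644, and 0.85 outside 2i+LIF HP). Lefty1 was most like Sox1 (0.918, rho of 0.816, and 0.858), and Lefty2 most like Psrc1 (0.927, rho of 0.821, and 0.735). Fst was most like Mapk9 (0.824, rho of 0.745, and 0.835), Smad7 most like Plcd3 (0.836, rho of 0.803, and 0.78), and Skil most like Fbxo5 (0.892, rho of 0.786, and 0.913). The next in order were Arrdc4 and Aplp1 for Tdgf1, Txnip and Ubald2 for Nodal, Nol7 and Mapkapk3 for Lefty1, Agtpbp1 and Ric8b for Lefty2, Slc44a1 and Polr2a for Fst, Ccdc22 and Swt1 for Smad7, and Mettl5 and Zfp65 for Skil, with r from 0.8 (Polr2a) to 0.909 (Agtpbp1). Tdgf1 and Nodal had an r of 0.741 over all libraries and 0.155 outside 2i+LIF HP, and Tdgf1 and Lefty2 had 0.825 and 0.126. These values are descriptions over libraries that share groups and depth.

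Other lists that moved with the low level in 2i+LIF HP were counted in the same fit. Between 2i+LIF LP and 2i+LIF HP, 6 of 8 Wnt targets rose, 5 of 7 tested MEK-ERK targets fell, the trophectoderm markers Krt7 and Cdx2 rose (2 of 3 tested) and the mesendoderm marker T, also one of the Wnt targets, rose (1 of 2 tested). Eomes, the other mesendoderm marker tested, was not called, at 30.2, 15.5 and 10.1 CPM in 2i+LIF LP and 7.9, 7.09 and 2.88 CPM at HP. The neural marker Sox1 fell (1 of 4 tested) and the formative marker Lef1, also a Wnt target, rose (1 of 4). Of the ES cell markers 0 of 8 were called, at a summed 1334 to 1933 CPM in 2i+LIF HP and 1686 to 3058 CPM in 2i+LIF LP. The 3058 CPM belonged to 2i+LIF LP replicate 1, and replicates 2 and 3 had 1686 and 1706 CPM. For LIF HP relative to 2i+LIF HP, where Nodal, Tdgf1, Lefty1 and Lefty2 were also higher, 5 of 8 Wnt targets were lower and the 1 MEK-ERK target called of 7, Etv4, was lower, as was T, while the ES cell marker Dppa5a was higher (1 of 8). For CH+LIF HP relative to 2i+LIF HP, 4 of 8 Wnt targets were lower, 3 of 7 MEK-ERK targets were higher, Otx2 was higher, and Krt7, Cdx2 and T were lower. T measured 13.5, 36.5 and 17.3 CPM in 2i+LIF HP and at most 3.01 CPM elsewhere. The part of any of these in the level of Tdgf1, Nodal, Lefty1 and Lefty2 was not tested.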

How the data were processed

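Messenger RNA was measured in 21 libraries of mouse ES cells, in 7 groups of 3 taken from the labels. The authors deposited 1 table of raw counts per library (31053 gene IDs and 5 closing entries such as reads not unique, left out of all totals; gene counts were 47.4% to 62% of all). Per the submitters' processing notes, bcl2fastq, STAR 2.6.0a and HTSeq were used with mm10; their settings are not given in the sources used here. Symbols and positions came from GENCODE M21 (GRCm38), which held 31011 of the IDs.

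Counts were fitted in R 4.3.3 with edgeR 4.0.16 (TMM scaling, low-count filter by group, quasi-likelihood F test, two-sided) over all 7 groups, with 14 residual degrees of freedom. P-values were adjusted by Benjamini-Hochberg over the 10643 genes tested in each comparison, at a threshold of 0.05. The 9 comparisons among cultured groups, 6 against PO, 3 interactions and 1 joint test were run. CPM use TMM-scaled library sizes, and correlations used log2 CPM with a prior count of 2. Further pathway genes are named where they passed the test, with a mean of at least 5 CPM in 1 of the groups compared and no overlap between their libraries, the largest 4 at most in each direction per comparison. Some items that the rule would name are not reported here. The 3 genes most correlated with each member are named for likeness. Scripts were tested on simulated data.

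Alternatives were DESeq2 1.42.0, its size factors, no filter, only the groups compared, a replicate block, thinning to 1132126 counts, limma-voom (limma 3.58.1), removal of mitochondrial genes and Gm42418, both outlying libraries left out, and each of the 21 libraries left out. Numbers were taken to pair libraries where r of the deviations was over 0.1 in all 3 pairs, which held in 1 of 15 comparisons, 2i+LIF LP against PO (0.397, 0.345 and 0.179). Below that limit, LIF HP against 2i+LIF HP had 0.327, 0.249 and 0.0501, with all 6 libraries closest to their own number, and the labels name no shared batch. Replicates differed by more than sampling noise (chi-square per degree of freedom of at least 5.21). Counting error alone underlies the intervals (95%) and the floor of 3 counts. The members and lists were chosen with earlier results of these data known.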

Additional observations from a re-analysis of the deposited data

Results flagged for a closer look

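The HP minus LP change of Tdgf1 differed between media when that difference itself was tested. It was higher in CH+LIF than in 2i+LIF by 3.47 and in LIF than in 2i+LIF by 3.53 on the log2 scale. The CH+LIF difference lost its call when any 1 of 6 libraries was left out and with the fit limited to the compared groups (3.49, adjusted p = 0.129). Both differences rest on the same 6 libraries of 2i+LIF, where Tdgf1 measured 343 to 431 CPM at LP and 10.4 to 65.5 CPM at HP.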

How the results depend on the processing

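No direction reversed under any alternative run among the single-gene results followed. The 65 single-gene results followed were all called except Nodal in 2i+LIF HP against LP, so losses were followed and gains hardly could be: of their 1944 values under alternatives, 188 lost the call. DESeq2 or limma-voom called further members, among them Smad7, Skil and, in LIF LP against PO, Fst (DESeq2) and Lefty2 (limma-voom). The 7 genes had 17 calls in 63 tests among cultured groups (13 to 17 with 1 library left out, 14 to 20 otherwise) and 8 in 42 against PO (6 to 11, 7 to 10). Of the 7, 5 differed among the cultured groups (3 to 5 with 1 library left out, the 3 without LIF HP replicate 2). The 2 interaction calls became 1 to 4 with 1 library left out: 4 without 2i+LIF LP replicate 1, but 1 call on leaving out replicate 3 of that group, CH+LIF LP replicates 1 or 3, or CH+LIF HP replicates 1 or 2. They became 4 with DESeq2 and 6 with no filter, with limma-voom and without both outlying libraries. The 9 pathway calls among cultured groups became 7 to 19 with 1 library left out (19 without 2i+LIF LP replicate 1, 15 without PO replicate 1), 17 with DESeq2 or no filter, 18 with only the groups compared, 22 with limma-voom and 24 without both outlying libraries. The 23 pathway calls against PO became 12 to 29 with 1 library left out (12 without PO replicate 3), 12 with only the groups compared and 45 with limma-voom. Fewer samples were fitted with libraries left out or only the groups compared; otherwise the cause was not tested.

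With the replicate number as a block, the calls were 17, 8, 5 and 2 for the 7 genes, and 11 and 25 for the pathway list. By the limit of r over 0.1 in all 3 pairs, the numbers paired libraries between 2i+LIF LP and PO and in no other comparison, though in LIF HP against 2i+LIF HP all 6 libraries were closest to their own number.

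Counts over all genes moved too. With 1 library left out and under the other alternatives, the 391 of 2i+LIF HP against LP ran from 136 to 590 and 52 to 672, the 215 of CH+LIF HP against 2i+LIF HP from 99 to 361 and 201 to 543, the 402 of LIF HP against 2i+LIF HP from 123 to 786 and 378 to 1427, and the 1060 of LIF HP against LP from 399 to 1617 and 1046 to 2747. Of the 7 genes, Fst had the fewest counts, 378 in all, so depth limits it most among them.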
